A study of Mus musculus with 8 samples.

Results

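Glucose and monocarboxylate transporters of the brain were examined through 5 genes, Slc2a1, Slc2a3, Slc2a13, Slc16a1 and Slc16a7, which were taken by gene name from the 13996 genes with an expression value. All 5 passed the filter on low values, as did 13982 genes in all. RNA was sequenced from the brain cortex of male C57BL/6 mice, 4 kept on a conventional diet (normal) and 4 on a high fat diet (HFD) with 60% fat by weight. The diets were given for 8 weeks from an age of 8 weeks, so that every mouse was 16 weeks old when the cortex was taken. The labels name no genetic change in either group, and each library came from 1 mouse. Expression is given as FPKM, the number of fragments scaled to transcript length and to the mapped fragments of the library, which is a level per length and can be compared between genes.

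The brain burns mainly glucose, which enters through carriers of the SLC2 (GLUT) family. Slc2a1 encodes GLUT1, the carrier of the blood-brain barrier endothelium and of glia, and Slc2a3 encodes GLUT3, the main glucose carrier of neurons. Lactate, pyruvate and ketone bodies are moved together with a proton by carriers of the SLC16 (MCT) family, of which Slc16a1 (MCT1) is known from endothelium, astrocytes and oligodendrocytes, and Slc16a7 (MCT2) from neurons.

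The cortex libraries differed in markers of neighbouring tissues. Markers of cortical excitatory neurons were present in all 8 mice, with a summed FPKM of 421, 317, 297 and 450 in normal mice 1 to 4 and of 505, 531, 588 and 496 in HFD mice 1 to 4. Of these 10 markers 8 were called higher in HFD, beside 17.7% of all genes tested, and the most abundant was Slc17a7. The 9 striatum markers, led by Penk, summed to 440, 361, 344 and 239 in normal mice 1 to 4 and to 79.4, 80.4, 88.9 and 82.3 in HFD mice 1 to 4, and all 9 were called lower in HFD. Each normal library had a higher striatum sum than each HFD library.

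Cerebellum and thalamus markers were highest in normal mice 2 and 3. The 9 cerebellum markers, led by Cbln1, summed to 23.5, 246, 345 and 81.5 in normal mice 1 to 4 and to 22.4, 22.3, 18 and 21.4 in HFD mice 1 to 4. The 5 thalamus markers, led by Slc17a6, summed to 31.5, 84.8, 72.4 and 23.4 in the normal mice and to 24.1, 23.2, 20.2 and 21 in the HFD mice. Of these, 4 of 7 tested cerebellum markers and 1 of 5 thalamus markers were called lower in HFD. Of all genes tested, 15.3% were called lower, so that the share of thalamus markers is near that of all genes. Normal mice 1 and 4 also had more of some cerebellum markers than the HFD mice, with an FPKM of 1.6 and 12.5 for Cbln3, beside 0.2 to 0.6 in HFD mice, and of 1.7 and 12.2 for Gabra6, beside 0 to 0.2, so that leaving out normal mice 2 and 3 does not remove this difference. The cerebellum markers Gabra6 and Cnpy1 were listed at 0 in HFD mouse 1. The 9 choroid plexus markers, led by Ttr, summed to 677, 578, 739 and 350 in the normal mice and to 80.7, 24.2, 29.8 and 958 in the HFD mice, so that HFD mouse 4 differed from the rest of its diet, and 3 of the 9 were called lower in HFD. In bulk tissue, fewer cells of a type and less RNA per cell cannot be told apart, and the transporters, their ratios and the called related genes are therefore also given without normal mice 2 and 3, a choice made after seeing the data.

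Across the genome the diets differed widely, and 4626 of 13982 genes (33.1%) had a limma adjusted p below 0.05. Of these, 2480 genes (17.7%) were higher and 2146 genes (15.3%) were lower in HFD, while 997 genes (7.13%) also differed by over 1.5-fold. Among the 5 transporters, 1 was called, Slc16a1, and it was lower in HFD. That is 20.0% of the 5, against 33.1% of all genes. Their median log2 fold change was 0.011, beside 0.0031 for all genes tested, and none was called at over 1.5-fold. FPKM of the diets did not overlap for 1 of the 5 transporters and for 4461 of 13982 genes (31.9%).

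**Figure D1:**
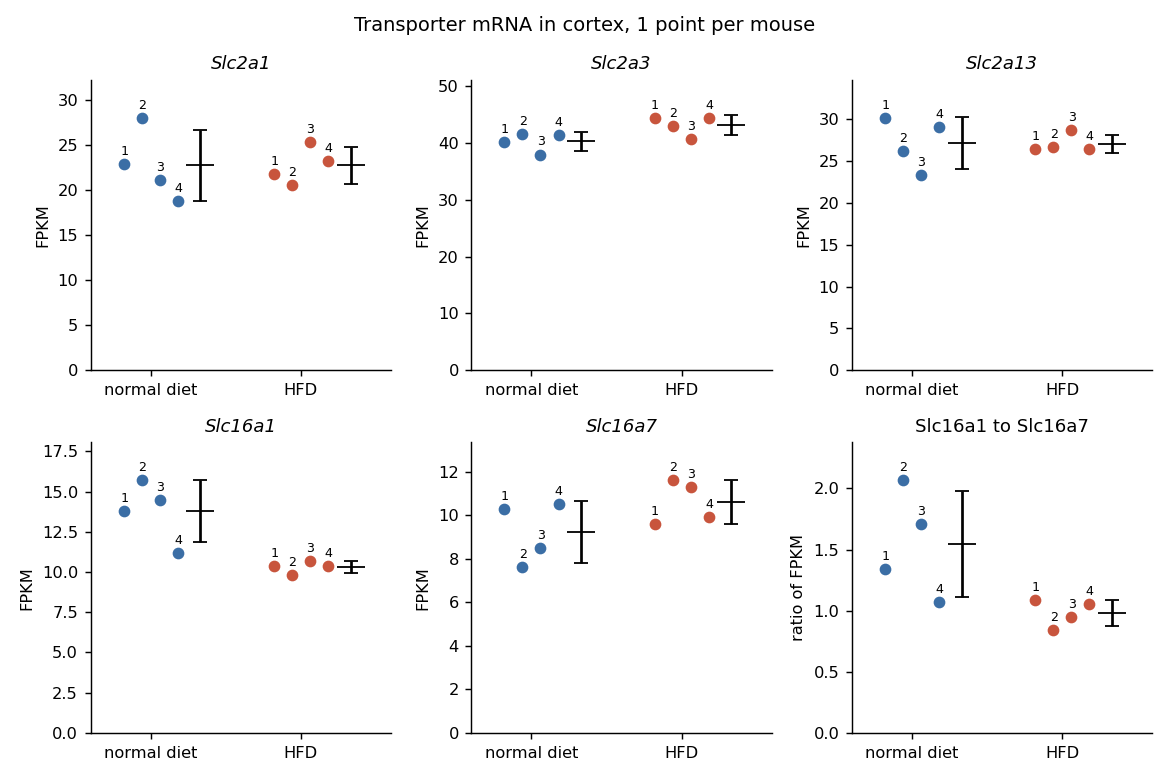
FPKM of each transporter, and the ratio of Slc16a1 to Slc16a7, on the vertical axis for 4 normal (blue) and 4 HFD (red) mice; numbers name the mice, and black bars give mean and SD. Slc16a1 lay between 11.2 and 15.7 in normal mice and between 9.8 and 10.7 in HFD mice, while each of the other 4 transporters overlapped between the diets.

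Slc2a3, the neuronal glucose carrier, had the highest level of the 5. Its FPKM was 40.2, 41.6, 38.0 and 41.5 in normal mice 1 to 4 and 44.5, 43.1, 40.8 and 44.4 in HFD mice 1 to 4. In 3 HFD mice it was above every normal mouse, and HFD mouse 3 lay within the normal range. The mean was 40.3 ± 1.68 in normal and 43.2 ± 1.72 in HFD mice (SD, n = 4 each). The log2 fold change of 0.10 (SE 0.048, 95% interval -0.0077 to 0.21) did not pass the test (limma adjusted p = 0.137). On the percent scale the interval ran from -0.53% to 15.4%. Without normal mice 2 and 3 the log2 fold change of Slc2a3 was 0.080 (SE 0.053, limma adjusted p = 0.314), and its adjusted p over the alternatives ran from 0.0808 to 1.00.

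Slc2a1, which carries glucose across the blood-brain barrier, had an FPKM of 22.9, 28.0, 21.1 and 18.8 in normal mice 1 to 4 and of 21.8, 20.5, 25.3 and 23.2 in HFD mice 1 to 4. The highest and the lowest value both came from normal mice, and all HFD values fell between them. The means were 22.7 ± 3.91 in normal and 22.7 ± 2.05 in HFD mice (SD, n = 4 each), with a log2 fold change of 0.011 (SE 0.11, limma adjusted p = 0.950). The 95% interval ran from -15.6% to 20.3%, so that with 4 mice per diet differences within these bounds were not excluded. Leaving out normal mice 2 and 3 gave a log2 fold change of 0.12 (SE 0.10).

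Because Slc2a1 is abundant in endothelium, the markers of that cell type were set beside it. The 14 endothelium markers, led by Ly6c1, summed to 157, 156, 145 and 140 in normal mice 1 to 4 and to 138, 131, 138 and 127 in HFD mice 1 to 4. Of the 14, Cldn5, Emcn, Slco1a4, Slco1c1 and Abcb1a were called lower in HFD and Ly6c1 was called higher. That is 42.9% of the 14, beside 33.1% of all genes. Cldn5, which encodes a tight junction protein, had a log2 fold change of -0.40 (SE 0.067, limma adjusted p = 0.00293), and Ly6c1 one of 0.23 (SE 0.064, limma adjusted p = 0.0236). The part of these markers in the level of Slc2a1 was not tested apart from the fit with their mean as a covariate, in which Slc2a1 had a log2 fold change of 0.30 (SE 0.17, limma adjusted p = 0.362). With the myelin markers as a covariate Slc2a1 was at 0.57 (SE 0.17, 95% interval 0.18 to 0.95, limma adjusted p = 0.263), with the striatum markers at 0.97 (SE 0.50, limma adjusted p = 1.00), and it was called in neither fit. Across the alternatives tried, the adjusted p of Slc2a1 lay between 0.263 and 1.00.

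Slc2a13 encodes HMIT, a member of the GLUT family that moves myo-inositol together with a proton. Its FPKM was 30.2, 26.2, 23.3 and 29.1 in normal mice 1 to 4 and 26.5, 26.7, 28.7 and 26.4 in HFD mice 1 to 4. Normal mice 1 and 4 had the highest levels and normal mouse 3 the lowest, and the HFD mice lay inside that range. The mean was 27.2 ± 3.10 in normal and 27.1 ± 1.09 in HFD mice (SD, n = 4 each), and the 95% interval of the difference ran from -11.5% to 12.9% (limma adjusted p = 0.998). Without normal mice 2 and 3 the log2 fold change was -0.13 (SE 0.054, limma adjusted p = 0.125). With the cerebellum markers as a covariate it was -0.28 (SE 0.092, 95% interval -0.49 to -0.077, limma adjusted p = 0.120), within a range of adjusted p from 0.120 to 1.00 over the alternatives.

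Slc16a1, the carrier of lactate and ketone bodies known from endothelium, astrocytes and oligodendrocytes, was the transporter called between the diets. Its FPKM was 13.8, 15.7, 14.5 and 11.2 in normal mice 1 to 4 and 10.4, 9.8, 10.7 and 10.4 in HFD mice 1 to 4. Each normal mouse was above each HFD mouse, and normal mouse 4 was closest to the HFD group. The mean was 13.8 ± 1.90 in normal and 10.3 ± 0.377 in HFD mice (SD, n = 4 each). The log2 fold change was -0.40 (SE 0.094, 95% interval -0.62 to -0.19), with a limma adjusted p of 0.0107. This is a change of -24.5%, with an interval from -34.7% to -12.6%.

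The call for Slc16a1 held in each of the 8 fits that left out 1 mouse, with log2 fold changes from -0.50 to -0.34. It was lost without normal mice 2 and 3, where the log2 fold change was -0.27 (SE 0.089, limma adjusted p = 0.0706). The adjusted p over all alternatives ran from 0.00117 to 1.00.

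Markers of myelin, the sheath made by oligodendrocytes, were lower in HFD, as Slc16a1 was. The 10 myelin markers, led by Mbp, summed to 3018, 3666, 3310 and 2236 in normal mice 1 to 4 and to 1595, 1536, 2126 and 1555 in HFD mice 1 to 4. All 10 were called lower in HFD, each by over 1.5-fold, with a median log2 fold change of -0.87, and none was listed at 0. Among normal mice, Slc16a1, the myelin sum and the thalamus sum had the same order, with mouse 2 highest, then mice 3 and 1, and mouse 4 lowest, and the pericyte and blood sums shared the highest and the lowest mouse. Among HFD mice, mouse 3 was highest and mouse 2 lowest for Slc16a1 and for the myelin sum, and for none of the other marker sums, while Slc16a1 was equal in mice 1 and 4. Mbp itself had an FPKM of 1215, 1573, 1416 and 908 in normal mice 1 to 4 and of 690, 675, 950 and 665 in HFD mice 1 to 4. The values of HFD mouse 3 and normal mouse 4 lay close together, so that for Mbp the diets overlapped.

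With the mean of the myelin markers as a covariate, Slc16a1 had a log2 fold change of 0.045 (SE 0.14, limma adjusted p = 0.923). That fit called 2 of 13982 genes, and the median SE over all genes was 0.182 in it, beside 0.0844 without a covariate. The striatum markers as a covariate gave 0.50 (SE 0.39), the cerebellum markers -0.25 (SE 0.16) and the endothelium markers -0.16 (SE 0.14), and Slc16a1 was not called in these fits. The diet and the tissue content of the libraries cannot be told apart for Slc16a1.

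**Figure D2:**
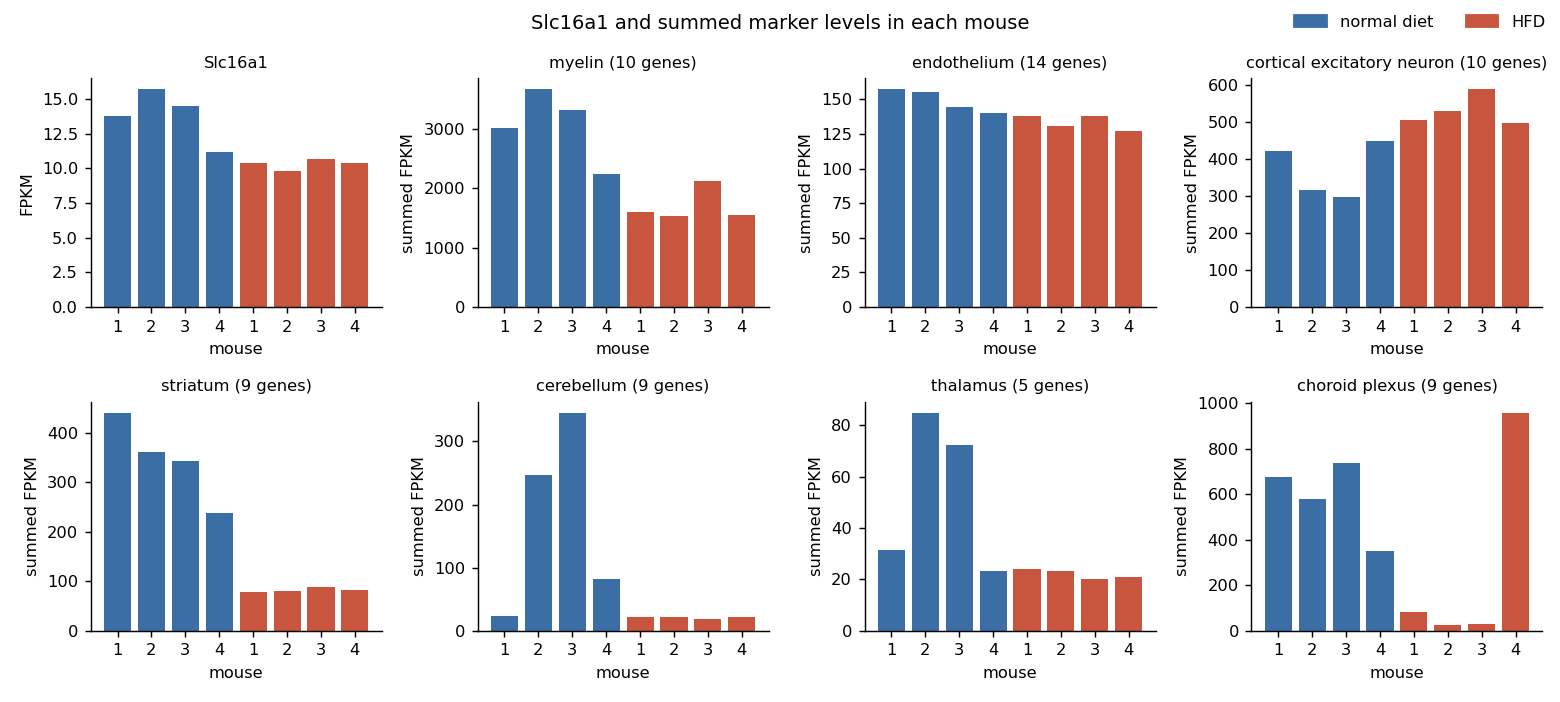
FPKM of Slc16a1 (first panel) and summed FPKM of 7 marker lists in each mouse, with normal mice in blue and HFD mice in red; each bar is 1 library and the number of genes per list stands in the panel title. Slc16a1, the myelin markers and the thalamus markers share the highest (mouse 2) and the lowest (mouse 4) normal mouse, and the cerebellum markers peak in normal mice 2 and 3.

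Slc16a7, the monocarboxylate carrier of neurons, had an FPKM of 10.3, 7.6, 8.5 and 10.5 in normal mice 1 to 4 and of 9.6, 11.6, 11.3 and 9.9 in HFD mice 1 to 4. Normal mice 2 and 3 were lowest and HFD mice 2 and 3 highest, while the remaining mice of both diets lay between 9.6 and 10.5. The mean was 9.23 ± 1.41 in normal and 10.6 ± 0.997 in HFD mice (SD, n = 4 each). The log2 fold change of 0.21 (SE 0.11, 95% interval -0.044 to 0.46) did not pass the test (limma adjusted p = 0.182). It was 0.023 (SE 0.090) when normal mice 2 and 3 were left out. Neuron markers, led by Snap25, summed to 2349, 2147, 2069 and 2399 in normal mice 1 to 4, where mice 2 and 3 were again the lowest, and to 2368, 2380, 2611 and 2293 in HFD mice 1 to 4. Of these 8 markers 1, Nefm, was called (12.5%, beside 33.1% of all genes), with a log2 fold change of -0.45. The part of the neuron markers in the level of Slc16a7 was not tested.

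**Figure D3:**
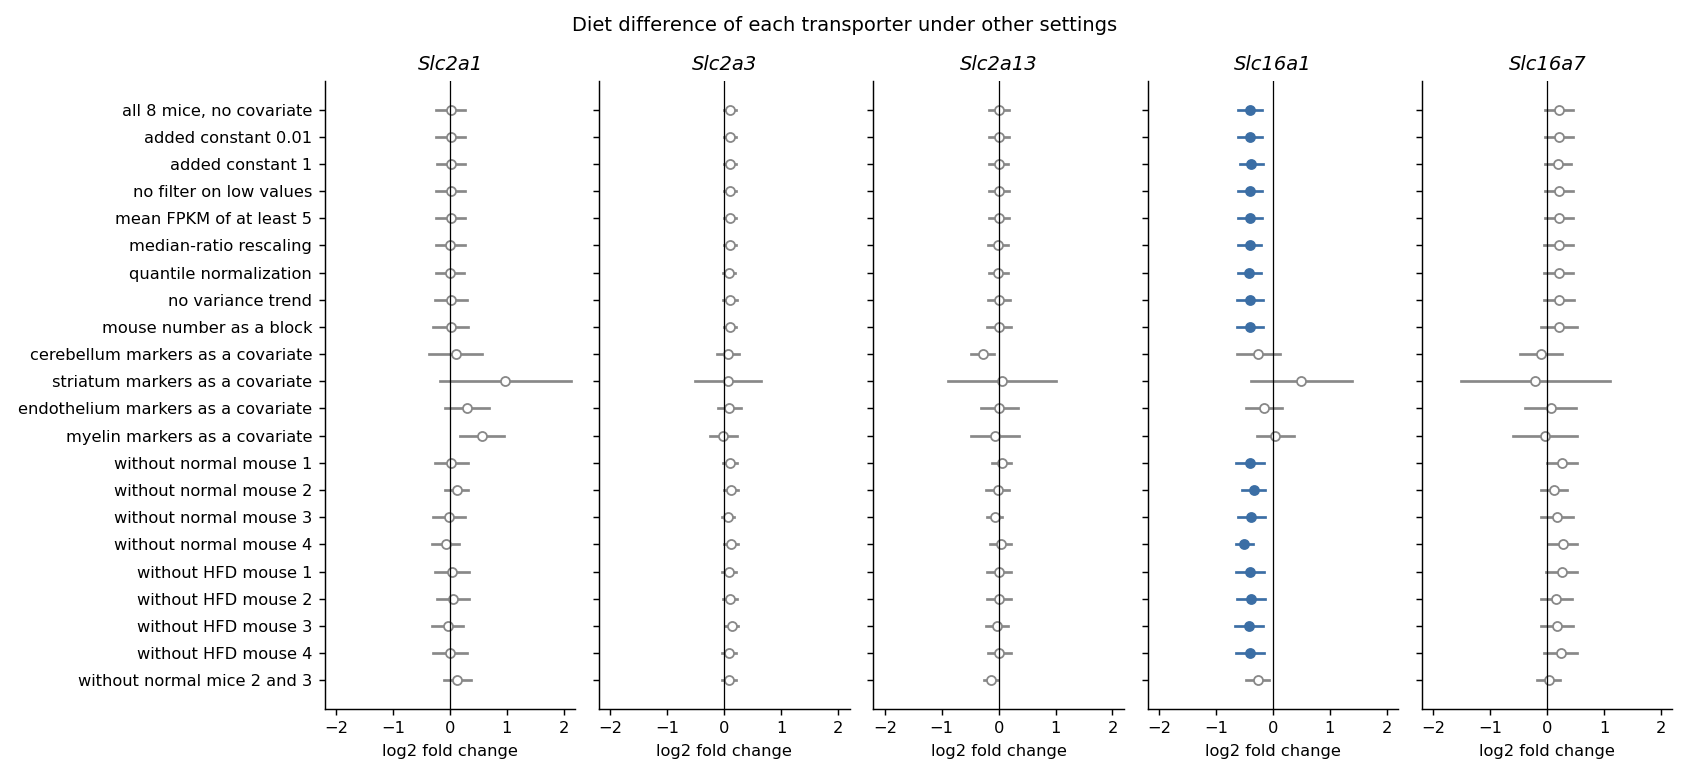
Log2 fold change (horizontal axis, HFD against normal) with its 95% interval for each transporter with all 8 mice and under 21 other settings; filled blue points have a limma adjusted p below 0.05. Slc16a1 was called with all mice and in 16 of the 21 other settings, and not with any of the 4 marker lists as a covariate or without normal mice 2 and 3.

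A ratio of a pair of transporters within a library does not depend on how that library was scaled. The ratio of Slc16a1 to Slc16a7 was 1.34, 2.07, 1.71 and 1.07 in normal mice 1 to 4 and 1.08, 0.845, 0.947 and 1.05 in HFD mice 1 to 4. In 3 normal mice Slc16a1 clearly exceeded Slc16a7, whereas in normal mouse 4 and in the HFD mice the levels were similar, so that the diets overlapped at 1.07 and 1.08. The difference of -0.62 on the log2 scale had p = 0.0571 in a two-sided exact permutation test over 70 assignments, whose smallest possible p is 0.0286, and p = 0.229 after Benjamini-Hochberg adjustment over the 4 ratios tested. The other 3 ratios, Slc2a1 to Slc2a3, Slc2a1 to Slc2a13 and Slc2a3 to Slc2a13, differed by -0.088, 0.011 and 0.0997 on the log2 scale, with exact permutation p = 0.543, 0.971 and 0.257. After adjustment over 4 ratios, the exact permutation test would give p = 0.114 for 1 ratio that alone separated the diets, so that such a ratio could not pass at 0.05, and nothing is drawn from these 4 tests. The other 6 pairs of the 5 transporters were not compared. Without normal mice 2 and 3 the ratio of Slc16a1 to Slc16a7 differed by -0.29 on the log2 scale (exact permutation p = 0.200 over 15 assignments, smallest possible 0.0667), and the other 3 ratios, in the order above, by 0.045, 0.26 and 0.21, with exact permutation p = 0.867, 0.0667 and 0.200. The ratio of Slc2a1 to Slc2a13 thus separated the diets in these 6 mice, at the smallest p they allow and at 0.267 after adjustment over 4 ratios.

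By mean FPKM over the 8 mice the order was Slc2a3 (41.8), Slc2a13 (27.1), Slc2a1 (22.7), Slc16a1 (12.1) and Slc16a7 (9.91). Slc2a3 was above Slc2a13 in all 8 mice without overlap, and Slc2a1 was above Slc16a1 in the same way. Slc2a13 exceeded Slc2a1 in 7 of 8 mice, but the ranges of these neighbours overlapped in the normal group, where mouse 2 had more Slc2a1. Slc16a1 exceeded Slc16a7 in 4 of 4 normal mice without overlap, and in 2 of 4 HFD mice with overlapping ranges, so that their order was not resolved in HFD. Slc2a3 had a higher mean than 87.1% of the listed genes and Slc16a7 a higher mean than 50.4%.

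The 5 transporters did not share 1 profile over the mice. The distance between profiles was taken as the root mean square difference of log2(FPKM + 0.1) over 8 mice, each profile centred on its own mean. This distance is smaller for genes that vary little. It was smallest for Slc2a3 and Slc2a13 (0.119) and largest for Slc16a1 and Slc16a7 (0.408). For Slc2a3 and Slc2a13 it exceeded the root mean square spread of each around its own mean (0.0715 and 0.108) and so does not show a shared profile. Slc16a7 was at 0.155 from Slc2a13 and 0.185 from Slc2a3, below its own spread of 0.190. Slc16a1 was at 0.227 from Slc2a1, below its own spread of 0.241. Each of these exceeded the spread of the other gene. Among 9641 genes, those nearest to Slc16a1 were Cers2 (0.0493), Mtmr2 (0.0557) and Yif1a (0.0571), beside a median distance of 0.260. The nearest genes to Slc2a1 were Gatm (0.0601), Car2 (0.0748) and Mrpl22 (0.0749), and those nearest to Slc2a3 were Hdac6 (0.0235), Mkln1 (0.0255) and Snx32 (0.0259). Slc2a13 was nearest to Gabarapl1 (0.0345) and Iqgap2 (0.0412) among the genes reported, and Slc16a7 to Fam171b (0.0479), Arhgap20 (0.0566) and Dock3 (0.0568). These genes were picked by distance over the same 8 mice, so that a diet difference like that of the transporter follows from the choice, and their tests are not given.

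All 5 are protein-coding genes, placed here by GENCODE M21 on GRCm38. Slc16a1 (ENSMUSG00000032902.1) lies on the plus strand at chr3:104638668-104658462 and Slc16a7 (ENSMUSG00000020102.15) on the minus strand at chr10:125219270-125389465. Slc2a1 (ENSMUSG00000028645.11) lies on the plus strand at chr4:119108711-119137983, Slc2a3 (ENSMUSG00000003153.10) on the minus strand at chr6:122727809-122801640 and Slc2a13 (ENSMUSG00000036298.10) on the minus strand at chr15:91267696-91573261. The annotated genes Gm12868 and Gm47862 on the opposite strand overlap exons of Slc2a1 by 105 bases and of Slc16a7 by 179 bases. Counting by strand is not described for the FPKM values, so reads over these bases could come from either gene. No exon of Slc16a1, Slc2a3 or Slc2a13 is overlapped by an exon of another annotated gene.

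For Slc16a1, the transporter with a called difference, the bases just before the start of the gene are shown. RefSeq promoter sequences on GRCm38.p6 were matched for 3 of the 5 transporters (Slc16a1, Slc2a1 and Slc2a13), with none for Slc2a3 and Slc16a7. The window chr3:104638414-104638663 on the plus strand reads, with the letters CACGTG (an E-box) in capitals:
Slc16a1: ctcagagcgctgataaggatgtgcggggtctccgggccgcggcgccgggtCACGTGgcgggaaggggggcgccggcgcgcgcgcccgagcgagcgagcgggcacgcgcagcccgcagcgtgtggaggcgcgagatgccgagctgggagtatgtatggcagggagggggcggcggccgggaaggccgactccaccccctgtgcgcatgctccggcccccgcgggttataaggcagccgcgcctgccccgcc
The E-box letters begin 200 bases before the RefSeq start and occur in the same window of 6.02% of 32851 promoters. The shorter ACGTG, searched on both strands and contained in CACGTG, occurs in 16.6% of promoters, among them Slc2a1 with 1 match and not Slc2a13. The GC box GGGCGG, searched on both strands, occurs once in Slc16a1, in 2 places in Slc2a1 and in 2 places in Slc2a13, and in 32.7% of promoters. These matches describe the letters only, and binding was not measured.

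Related genes were read from 6 lists, in which 18 of 41 genes tested were called, 8 higher and 10 lower in HFD, beside 33.1% of all genes. Leaving out normal mice 2 and 3, 11 of the 41 were called, 10 of these 18 among them, in a fit that called 19.6% of all genes. With the cerebellum markers as a covariate 5 of the 41 were called, 4 of the 18 among them, beside 2.70% of all genes. With the striatum, endothelium or myelin markers 0 were called by limma (1, 7 and 4 of the 41 at unadjusted p below 0.05). Those fits called 0%, 0.322% and 0.0143% of all genes, so that 0 calls there are not particular to these lists. The other SLC2 sugar carriers had 4 listed genes, of which Slc2a6 was the most abundant with a mean FPKM of 10.4. Slc2a8 (GLUT8) alone was called, with an FPKM of 7.65 ± 0.370 in normal and 8.98 ± 0.479 in HFD mice and a log2 fold change of 0.23 (limma adjusted p = 0.0209). Its call was lost without normal mice 2 and 3 (0.17). Of the SLC5 list, Slc5a3, a sodium and myo-inositol cotransporter, was listed with a mean FPKM of 8.01 and was not called (log2 fold change -0.024).

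Of 9 other SLC16 carriers, 3 were called higher in HFD and none lower. That is 33.3% called, near the 33.1% of all genes. The most abundant, Slc16a11, had a mean FPKM of 6.93 and was not called. Slc16a3 encodes MCT4, a lactate exporter, and rose from 1.40 ± 0.271 to 2.30 ± 0.346 FPKM with a log2 fold change of 0.69 (limma adjusted p = 0.0133), the one related gene called at over 1.5-fold. Slc16a14 had a log2 fold change of 0.29 at 2.00 FPKM in normal mice. For both genes the rounding of FPKM to 0.1 limits precision. The lowest level of Slc16a3, 1.0 in normal mouse 3, lay far from the rest of its diet. Without normal mice 2 and 3, Slc16a3 was called (0.57), and Slc16a14 (0.29) was not.

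Of 7 accessory proteins and regulators, 1 was called higher and 4 lower (71.4% called, beside 33.1% of all genes). Bsg encodes basigin, the partner that brings MCT1 to the cell surface. It had an FPKM of 298, 330, 301 and 285 in normal mice 1 to 4 and of 255, 241, 240 and 254 in HFD mice 1 to 4. The groups did not overlap, and the log2 fold change was -0.29 (SE 0.055, limma adjusted p = 0.00442). Nptn, which encodes the related neuroplastin and was the most abundant gene of the list, fell from 316 ± 27.3 to 272 ± 9.18 FPKM (log2 fold change -0.21, limma adjusted p = 0.0332). Txnip encodes an arrestin that lowers glucose uptake and rose from 8.90 ± 0.876 to 10.98 ± 0.789 FPKM (log2 fold change 0.30), while its relative Arrdc4 fell from 3.00 ± 0.163 to 2.30 ± 0.356 FPKM (log2 fold change -0.38). Hif1a, the hypoxia-induced transcription factor, had a log2 fold change of -0.33. In the fit without normal mice 2 and 3, Bsg (-0.24), Nptn (-0.32) and Txnip (0.42) were called and Arrdc4 (-0.43) and Hif1a (-0.16) were not.

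Of 14 genes for hexokinases and for lactate and pyruvate handling, 3 were called higher and 4 lower (50% called, beside 33.1% of all genes). Hk1, the main brain hexokinase, which traps glucose after uptake, rose from 98.8 ± 5.57 to 119 ± 2.67 FPKM with a log2 fold change of 0.27 (limma adjusted p = 0.00380). Mpc1, a subunit of the mitochondrial pyruvate carrier, fell from 98.2 ± 6.15 to 79.0 ± 0.602 FPKM (log2 fold change -0.31), and Pdhb, a subunit of pyruvate dehydrogenase, fell from 64.5 ± 3.29 to 51.45 ± 1.51 FPKM (log2 fold change -0.32). The kinases that switch off pyruvate dehydrogenase went in both directions, with Pdk1 (0.29) and Pdk2 (0.38) called higher and Pdk3 (-0.21) called lower. Ldhb, a lactate dehydrogenase subunit and the most abundant gene of the list with a mean FPKM of 289, had a log2 fold change of -0.20. When normal mice 2 and 3 were left out, Hk1, Mpc1, Pdhb, Pdk2 and Pdk3 were called, and Pdk1 (0.13) and Ldhb (-0.12) were not.

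Of 6 genes for ketone body use and synthesis, 2 were called lower and none higher (33.3% called, near the 33.1% of all genes). Oxct1, the enzyme that activates ketone bodies for use and the most abundant of the list, had an FPKM of 107, 107, 105 and 109 in normal mice 1 to 4 and of 96.3, 97.1, 95.8 and 98.0 in HFD mice 1 to 4. The spread within each diet was small and the groups did not overlap, so that a log2 fold change of -0.14 (SE 0.036) passed the test (limma adjusted p = 0.0144). Oxct1 (-0.16) was also called without normal mice 2 and 3, and it was not called with any of the 4 marker lists as a covariate.

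**Figure D4:**
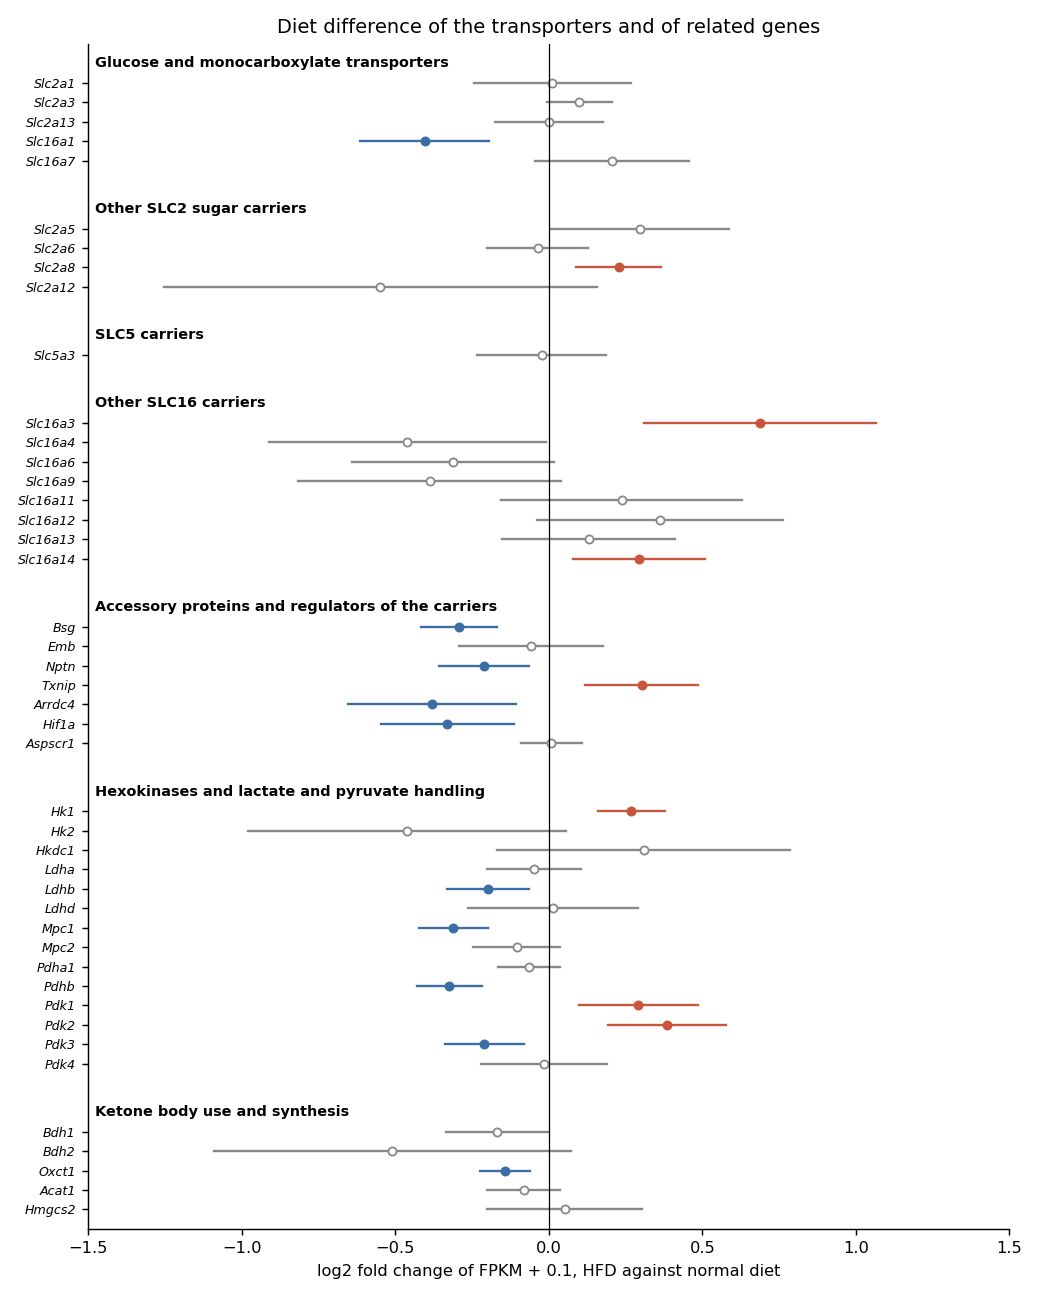
Log2 fold change of FPKM + 0.1 (horizontal axis, HFD against normal, 4 mice each) with its 95% interval for the 5 transporters and 39 of the 41 related genes; filled points have a limma adjusted p below 0.05, red where higher and blue where lower in HFD. Slc16a1 (-0.40) is the one filled point among the transporters. Slc16a3 (0.69) has the largest change among the filled points, at a mean FPKM of 1.85 where rounding to 0.1 limits precision.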

How the data were processed

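Stranded, rRNA-depleted libraries of 4 normal and 4 HFD cortexes were sequenced, 1 for each mouse. The authors trimmed reads with Trimmomatic after FastQC, aligned them to mm10 with STAR and deposited FPKM values from Cuffnorm with GENCODE M17, rounded to 0.1. Tool versions were not named. FPKM hold no read counts, so the depth per mouse is unknown. Groups came from the sample titles. The 5 transporters and all gene lists were chosen with earlier results of these data known.

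A gene was tested if its FPKM averaged 1 or more and was never 0. limma 3.58.1 (R 4.3.3) was fitted to log2(FPKM + 0.1) with trended variances. Tests were two-sided, p-values were adjusted over 13982 genes by Benjamini-Hochberg, and 0.05 was the threshold. A fold change on this scale understates the change of low genes. Ratios of transporters were compared by exact permutation in Python 3.11.15 with numpy 2.4.6 and pandas 2.3.3, and plots were made with matplotlib 3.10.9. The fit was tested on simulated data.

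Named were the 5 transporters, every called gene reported here and the most abundant gene of each of 6 pathway lists, the 3 genes nearest in profile (mean FPKM from 5), and the most abundant marker of 12 marker lists. Other named markers, and the letters searched in promoters, were chosen after the values were seen. The results of 3 genes are not reported here. Of the remaining marker lists, 1 of 6 pericyte markers (Vtn most abundant) and 5 of 5 blood markers (Hbb-bs) were called lower in HFD. Among all genes, 15.3% were called lower. Of 9 astrocyte markers (Aldoc), 3 were called higher and 2 lower (55.6% called, beside 33.1% of all genes). Of 7 microglia markers (C1qa), limma called 0, with 1 at unadjusted p below 0.05. Alternatives were 2 added constants, 2 filters, 2 scalings, no variance trend, the mouse number as a block, each mouse left out, 4 marker covariates and, chosen after seeing the data, normal mice 2 and 3 left out.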

Additional observations from a re-analysis of the deposited data

Results flagged for a closer look

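In 5 of 106 sets of 4 mice, over 53 genes, 1 mouse lay far from the rest of its diet, and chance gives about 5% of such sets. Slc2a13 had an FPKM of 28.7 in HFD mouse 3, above the other HFD mice at 26.4 to 26.7. The same mouse had the highest Mbp of its diet, at 949.5. Ttr was far higher in HFD mouse 4, at 920.7, than in the other HFD mice. Snx32, a gene close in profile to Slc2a3, was lowest in normal mouse 3, at 30.8. Slc16a3 had an FPKM of 1.0 in normal mouse 3, where values are rounded to 0.1.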

How the results depend on the processing

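Without normal mice 2 and 3, chosen after seeing the data, 2743 genes were called by limma, 604 at over 1.5-fold, and the log2 fold change of Slc16a1 was -0.27 and not called. With a marker list as a covariate, 378 genes (cerebellum), 45 (endothelium), 2 (myelin) and 0 (striatum, with 293 at unadjusted p below 0.05) were called, and 220, 41, 2 and 0 at over 1.5-fold. Slc16a1 was then at -0.25 (cerebellum), -0.16 (endothelium), 0.045 (myelin) and 0.50 (striatum), and was not called. Directions of transporters that were not called turned for Slc16a7 at -0.12 (cerebellum), -0.21 (striatum) and -0.043 (myelin), for Slc2a13 at 0.056 (striatum) and 0.013 (endothelium), and for Slc2a3 at -0.017 (myelin). The ratio of Slc2a1 to Slc2a3 turned to 0.045 without normal mice 2 and 3, where 6 mice allow no exact p below 0.0667. The cause was not tested. The count at over 1.5-fold was 603 with an added constant of 1 and 422 with a mean FPKM of at least 5, where 9638 genes were tested.

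With each mouse left out in turn, 3295 to 4619 genes were called. The log2 fold change ran from -0.074 to 0.117 for Slc2a1 and from -0.072 to 0.052 for Slc2a13, and that of the ratio from -0.19 to 0.0025 for Slc2a1 to Slc2a3, from -0.11 to 0.13 for Slc2a1 to Slc2a13, from 0.046 (without normal mouse 1) to 0.16 (without HFD mouse 3) for Slc2a3 to Slc2a13 and from -0.78 (without normal mouse 4) to -0.46 (without normal mouse 2) for Slc16a1 to Slc16a7, none of them called. Slc16a1 was called each time. Of the 18 related genes called, 7 (Slc16a3, Bsg, Hk1, Mpc1, Pdhb, Pdk2 and Oxct1) were called each time. The call was lost for Txnip without HFD mouse 4 and for Pdk3 without HFD mouse 1 or 2. Slc2a8, Slc16a14, Nptn, Arrdc4, Hif1a, Ldhb and Pdk1 lost it in 4 or more of these 8 fits, with adjusted p up to 0.101. Of the 18, quantile normalization kept 15, the cerebellum covariate 4 and the striatum, endothelium and myelin covariates 0 (limma, with 1, 7 and 4 of the 41 genes at unadjusted p below 0.05). These fits called 33.2%, 2.70%, 0%, 0.322% and 0.0143% of all genes, in that order.

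Mice of the same number did not vary together (correlations of -0.038, -0.028, -0.109 and -0.072). A pairing of mice by number is not stated, and these correlations cannot exclude one. With the mouse number as a block, 3390 genes were called, 9 of the 18 and not Oxct1 among them. Slc16a1 was then at -0.40 (limma adjusted p = 0.0288). The other settings changed no call and no direction of the 5 transporters. FPKM rounded to 0.1 limit what can be read from genes near 1.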
